A study of Mus musculus with 34 samples.

Results

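The comparison described here is that of wild-type (WT) mouse T cells at 72 h against 24 h of stimulation. Its members are the 4 WT libraries of the series that carry the numbers 1 and 4 at both times, 1 library for each number and time, out of 34 libraries in all. The cells were splenic pan T cells from C57BL/6 mice 6 to 12 weeks old, purified by negative selection and cultured with antibodies to CD3 and CD28 and with recombinant IL-2. The study sequenced ribosomal RNA-depleted total RNA of such cells from WT mice and from 5 mutant genotypes on days 1 and 3, and of WT cells before stimulation. Among the mutants used below, CD28_Y170F and Ars2_KO have 3 libraries at each time and CD28_KO has 2; all groups share the strain, the age range and the stimulation. The labels give neither the construct nor the Cre driver behind Ars2_KO, and they do not say whether libraries with the same number came from 1 mouse. The series design calls the replicates biological. The question the comparison answers is how the transcriptome of stimulated WT T cells moved between day 1 and day 3.

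A T cell that receives a signal through its antigen receptor together with CD28 leaves quiescence, grows, and then divides repeatedly. Growth comes first, with the production of ribosomes, the immediate early transcription factors and the first burst of cytokine messages; division and effector differentiation follow, carried forward in culture by IL-2. Proteins for mitosis and for packaging new DNA are made from genes whose messages are abundant in G2 and M phase and in S phase, so that their level in bulk RNA moves with the share of cells in those phases. In bulk RNA, fewer cells of a type and less RNA per cell cannot be told apart.

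The number 1 libraries held 26393372 counts at 24 h and 25181537 at 72 h, and the number 4 libraries 10412781 and 10056196, so that each pair was of one depth and the numbers differed in depth. The pair and the depth therefore cannot be told apart. Levels below are CPM, counts relative to a library total scaled by trimmed mean of M values, not corrected for gene length, and are compared between libraries within a gene; where 2 values are given for a time, number 1 stands first and number 4 next, and each is 1 library (n = 2 at each time). The T cell label held in all 4 libraries: the 13 T cell markers summed to 2850 to 4110 CPM, and B cell, myeloid and NK cell markers to 13.4 to 29.3, 74.8 to 100.0 and 10.2 to 14.9 CPM. None of these 3 lists had a member that passed the test between the times. Erythroid and platelet markers summed to 37.1 CPM in the 24 h library number 4 and to 0.775 to 1.55 CPM in the other 3, and none of their 8 tested members passed.

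Between 24 h and 72 h, 5597 of 18292 genes tested differed at an adjusted p under 0.05 (30.6%; edgeR's quasi-likelihood test with Benjamini-Hochberg adjustment, with the library number as a block). Of these, 2914 were higher at 72 h (15.9%) and 2683 lower (14.7%), and 1158 and 1092 respectively had changed by at least 2-fold. The shares of 15.9% higher and 14.7% lower are the background for every gene list below. They cover all 18292 genes tested, of which 9308 had a mean log2 CPM of 3 or more. At least 3758 of the called genes were at that level. Most lists below hold mainly genes of that level, and a background matched for level was not computed. How much of a list's distance from the background goes with its level was not tested. The sign was the same in both pairs for 5581 of the 5597. In a fit that gave each library its own mean, the pair number 1 alone called 2899 genes (15.8%) and the pair number 4 alone 3082 (16.8%), with 2001 genes in both, all of the same sign. Refits without number 4 and without number 1 called 2868 and 3003 genes. The median log2 fold change over all genes tested was -0.03.

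The genes that had moved most are listed first, and no grouping of them was tested. Leaving aside low genes (mean log2 CPM under 3), the largest rises were of the stearoyl-CoA desaturase gene Scd1 (log2 fold change 5.26), the histone gene Hist1h2bf (4.32), the mitotic regulator Pimreg (4.20), the fibrinogen-like protein gene Fgl2 (3.89), Neurl1b (3.84), the helicase gene Pif1 (3.77), Rap1gap2 (3.61), Scd2 (3.53), the cyclin gene Ccnb2 (3.52), the galectin gene Lgals3 (3.52), the nucleotide kinase gene Cmpk2 (3.52) and Gas2l3 (3.42). The largest falls were of Ifng (-4.68), Nr4a3 (-3.93), Lta (-3.70), Egr2 (-3.69), the receptor gene Gpr83 (-3.64), Lif (-3.46), Cd200 (-3.21), Irf4 (-3.01), Xcl1 (-2.89), the tRNA methyltransferase gene Trmt61a (-2.64), the deoxycytidylate deaminase gene Dctd (-2.64) and Rgs1 (-2.60), a regulator of G protein signalling. Passing the test, the same sign in both pairs and no overlap between the times were conditions for naming these 24 genes.

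**Figure D1:**
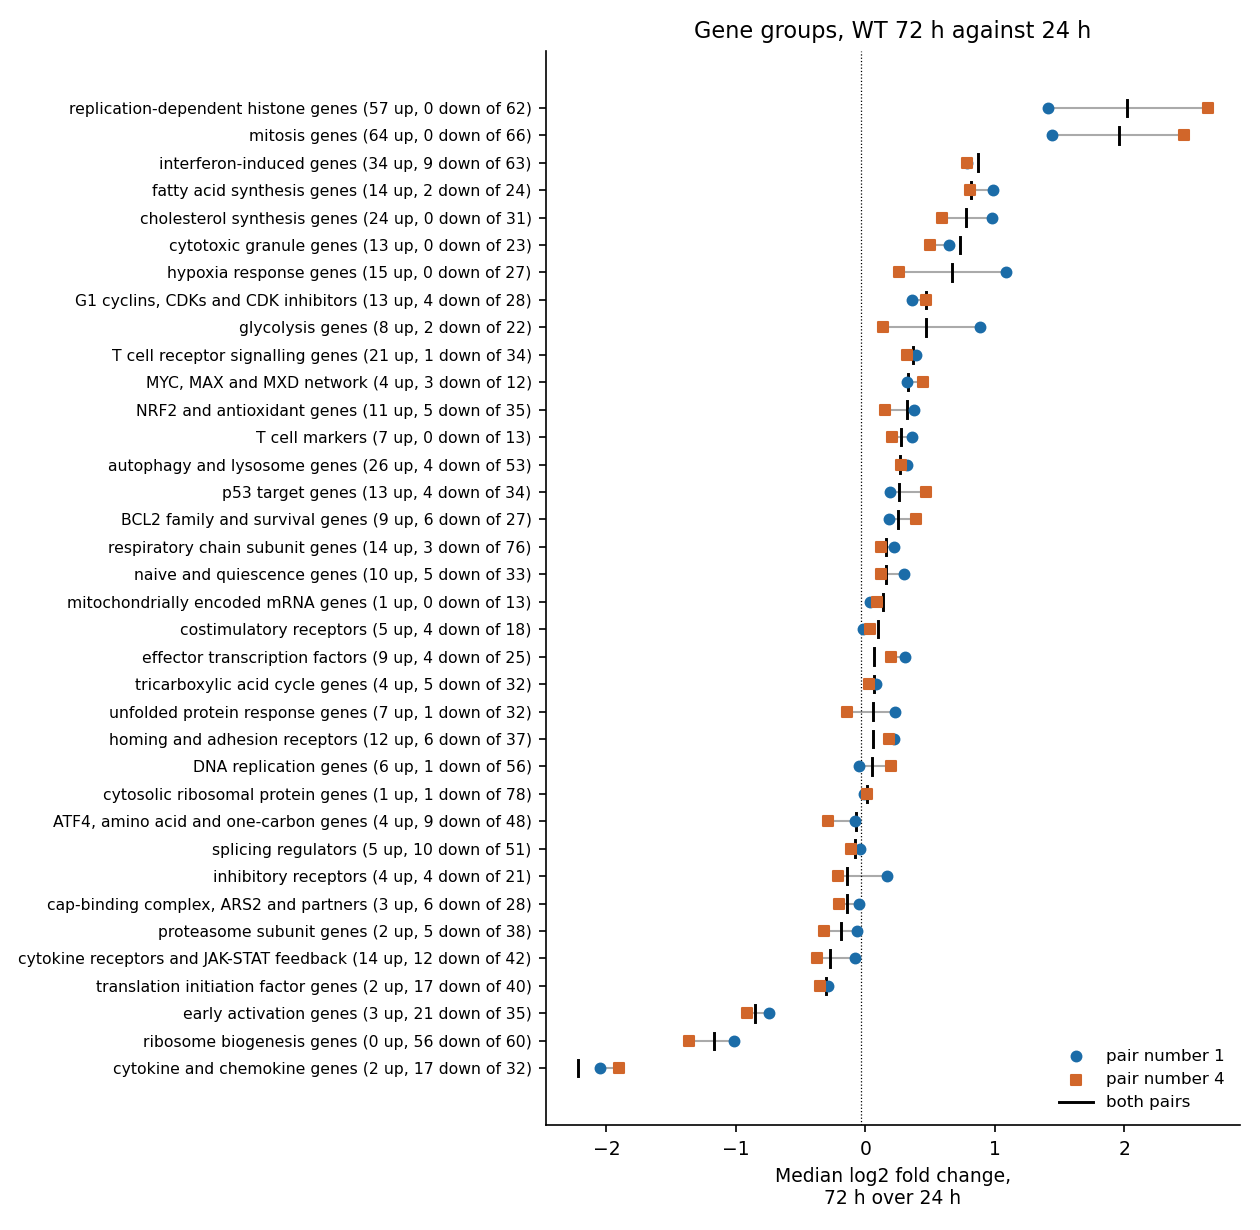
Each row is a gene group; the x axis is the median log2 fold change of its tested members, 72 h over 24 h, in the pair number 1 (circles), in the pair number 4 (squares) and over both (bars), and the labels give how many members passed the test upward and downward. Histone and mitosis genes lie at the top with medians of 2.02 and 1.96, cytokine and ribosome biogenesis genes at the bottom with -2.22 and -1.17, and the dotted line marks the median of all genes tested, -0.03. Of the 32 cytokine genes tested, 11 had a mean log2 CPM of 3 or more.

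Genes of mitosis rose almost as a body. Of 68 genes listed 66 were tested, 64 rose and none fell (background 15.9% higher), and the median log2 change was 1.96. Ccnb2 (ENSMUSG00000032218.6, GRCm38 chr9:70407692-70421547, minus strand), the cyclin that activates CDK1 at mitotic entry, stood at 15.3 and 5.90 CPM at 24 h and at 123 and 110 CPM at 72 h. Its log2 fold change was 3.52 with a standard error (SE) of 0.30 (adjusted p = 7.8e-09), and the times did not overlap. The centromeric histone gene Cenpa went from 44.5 and 29.6 CPM to 281 and 275 CPM (log2 2.93, SE 0.20, adjusted p = 3.7e-10). Cdc25b, the phosphatase that switches on cyclin-dependent kinases, went from 44.8 and 35.7 to 233 and 272 CPM (log2 2.65, SE 0.22). The spindle protein gene Knstrn rose from 24.0 and 13.1 to 85.7 and 87.2 CPM. Among the best known members, Mki67, the proliferation antigen Ki-67, stood at 894 and 334 CPM and then at 2700 and 2380 CPM (log2 2.21), Top2a, the decatenating topoisomerase, at 745 and 334 and then 1930 and 1610 CPM (log2 1.82), and Cdk1 at 64.6 and 26.0 and then 125 and 96.0 CPM (log2 1.39). In each of these genes the 24 h library number 4 was the lowest and both 72 h libraries lay close together. Only the securin gene Pttg1 (log2 0.11, adjusted p = 0.55) and Mybl2 (log2 0.57, adjusted p = 0.10) did not pass.

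The pairs differed in the size of this rise. The median log2 fold change of the mitosis genes was 1.44 in the pair number 1 and 2.46 in the pair number 4, and it was larger in number 4 for 66 of 66. Over all genes the difference between the pairs was called for 0 of 18292 (0.0%) by edgeR and by limma-voom, with 715 at an unadjusted p under 0.05 (3.91%), and 52 of the 66 mitosis genes were among those 715. The difference lay at 24 h: the median log2 ratio of number 4 to number 1 over the mitosis genes was -1.20 at 24 h and -0.20 at 72 h, against 0.0 and -0.02 over all genes tested.

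The promoters of 2 mitosis genes that hold the letters of a cell cycle homology region (CHR) are shown. This element is known background for genes that peak in G2 and M phase. Each window is the 250 bases before the RefSeq start on GRCm38.p6, written 5′ to 3′ on the gene's strand, with the CHR letters TTTGAA in capitals. The Ccnb2 window is chr9:70421555-70421804 on the minus strand, with the match beginning 167 bases before the start, and that of Ncapd2, a condensin subunit that rose from 198 and 106 to 589 and 536 CPM, is chr6:125191587-125191836 on the minus strand, with the match 123 bases before the start.
Ccnb2: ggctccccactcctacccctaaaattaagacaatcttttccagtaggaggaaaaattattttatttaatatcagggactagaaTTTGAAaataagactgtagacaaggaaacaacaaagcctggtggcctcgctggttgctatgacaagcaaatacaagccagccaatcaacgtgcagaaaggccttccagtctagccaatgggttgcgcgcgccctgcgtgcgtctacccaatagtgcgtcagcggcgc
Ncapd2: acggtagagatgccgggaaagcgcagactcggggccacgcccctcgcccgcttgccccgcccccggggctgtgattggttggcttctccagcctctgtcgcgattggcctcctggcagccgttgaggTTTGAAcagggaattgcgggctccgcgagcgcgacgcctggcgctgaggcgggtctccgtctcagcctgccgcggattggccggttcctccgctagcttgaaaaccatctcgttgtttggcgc
Searched on both strands, TTTGAA stood in 23 of 61 windows of mitosis genes (37.7%; 56 of 68 members had a window, some more than 1) and in 5252 of 32851 windows of all genes (16%). A match describes letters, not a bound site.

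Replication-dependent histone genes, which supply the histones for newly made DNA and whose messages end in a stem loop instead of a poly(A) tail, rose as much. Of 62 tested, 57 rose and none fell (91.9% higher, background 15.9%). The median log2 change was 2.02 (2.01 with members at 0 in both libraries of a time set to a floor of 3 counts). Hist1h2bf (ENSMUSG00000069268.4, GRCm38 chr13:23573736-23574196, minus strand), an H2B gene, went from 6.12 and 5.25 CPM to 119 and 109 CPM (log2 4.32, SE 0.30, adjusted p = 3.7e-10). The H3 gene Hist1h3d went from 16.7 and 7.93 to 110 and 108 CPM, and the linker histone gene Hist1h1b from 132 and 50.3 to 600 and 424 CPM (log2 2.62). The most abundant of those named, the linker histone Hist1h1c, went from 465 and 247 to 1310 and 1170 CPM (log2 1.87). Histone genes together took 0.674% and 0.276% of all counts at 24 h and 1.59% and 1.49% at 72 h; the exact permutation test of this share gave p = 0.33, two-sided, the smallest that 2 against 2 libraries allow. As with mitosis, the pair number 4 moved more (median 2.65 against 1.41), larger in 62 of 62 genes, and 45 of them had an unadjusted p under 0.05 for the pair difference. Histone genes lie in clusters of near-identical copies, so the split of reads between single copies is uncertain.

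DNA replication genes did not move with them. Of 56 tested, 6 rose and 1 fell (10.7% and 1.79%, background 15.9% and 14.7%). The median log2 fold change was 0.05 (-0.05 in pair number 1 and 0.20 in pair number 4). Mcm2, a subunit of the replicative helicase, stood at 311 and 237 CPM at 24 h and at 222 and 133 CPM at 72 h (log2 -0.66, SE 0.29, adjusted p = 0.092). Pcna, the sliding clamp, stood at 448 and 281 and then at 411 and 289 CPM (log2 -0.04, adjusted p = 0.92). In both genes number 4 was below number 1 at each time, which held for 56 of 56 members at 24 h and at 72 h. The clearest riser was E2f2, a transcription factor of S phase genes, from 60.6 and 35.9 to 264 and 221 CPM (log2 2.37, SE 0.22, adjusted p = 1.9e-08), followed by the checkpoint adaptor Clspn (log2 1.08) and the ribonucleotide reductase subunit Rrm2 (0.99). Ung, the uracil-DNA glycosylase, was the member that fell, from 60.8 and 57.9 to 22.2 and 12.6 CPM (log2 -1.79).

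Around the G1 checkpoint, the inhibitor genes Cdkn2c and Cdkn2d rose and the cyclin gene Ccnd2 fell. Of 28 G1 cyclins, kinases and inhibitors tested, 13 rose and 4 fell (46.4% and 14.3%, background 15.9% and 14.7%), the latter share near the background. The INK4 inhibitor Cdkn2c went from 14.2 and 6.18 to 55.6 and 61.6 CPM (log2 2.55), and Cdkn2d from 15.0 and 11.8 to 57.1 and 55.1 CPM (log2 2.07, SE 0.12, adjusted p = 3.3e-11). Ccnd2, cyclin D2, fell from 1260 and 1330 to 459 and 372 CPM (log2 -1.65, SE 0.15, adjusted p = 1.8e-08). Of 12 MYC, MAX and MXD network genes tested, 4 rose and 3 fell (33.3% and 25.0%), and 5 did not pass. Myc fell from 273 and 241 to 110 and 62.3 CPM (log2 -1.62, SE 0.27, adjusted p = 6.2e-05) and its partner Max fell (log2 -0.84). The antagonists Mxd3 (2.35), Mxd4 (1.5) and Mxi1 (1.22) rose, while Mxd1 did not pass (log2 0.19, adjusted p = 0.52). Mxi1 had unequal pairs, with a log2 fold change of 1.79 in number 1 and 0.54 in number 4.

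Ribosome biogenesis genes fell as a body. All 60 were tested and 56 of them fell, none rose (background 14.7% lower); their median on the log2 scale was -1.17 (-1.01 and -1.36 in the pairs). Polr1b (ENSMUSG00000027395.15, GRCm38 chr2:129100995-129126594, plus strand), a core subunit of RNA polymerase I, which transcribes ribosomal RNA, stood at 119 and 108 CPM at 24 h and at 28.4 and 16.8 CPM at 72 h (114 ± 8.03 and 22.6 ± 8.23, mean ± SD, n = 2). Its log2 fold change was -2.35 with an SE of 0.37 (adjusted p = 2.8e-05). The processing factors Rrp12 (86.7 and 73.9 to 31.3 and 18.8 CPM, log2 -1.71), Tsr1 (log2 -1.59), Nip7 (-1.53) and Noc3l (-1.47) fell by similar amounts. Nucleolin, Ncl, one of the most abundant messages of the list, fell from 2450 and 1750 to 1340 and 904 CPM (log2 -0.91, adjusted p = 0.00088). The 4 that did not pass, Npm1 (log2 -0.40, adjusted p = 0.077), Wdr12 (-0.31), Emg1 (-0.27) and Polr1c (-0.15), were lower in both pairs as well. In 58 of the 60 both 72 h libraries lay below both 24 h libraries, against 29.7% of all genes tested. The number 4 libraries were the lower ones at both times for nearly all members, 59 of 60 at 24 h and 58 of 60 at 72 h.

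The genes for the ribosome's own proteins stayed near the median. Of 78 cytosolic ribosomal protein genes, 1 rose (Rpl28, log2 0.31) and 1 fell (Rpl37a, -0.27), and the median was 0.01 (-0.01 in pair number 1). Translation initiation factors lay between these lists, with 17 of 40 lower and 2 higher (42.5% and 5.0%) and a median of -0.30. Eif4a2, a helicase of the eIF4F cap-binding complex, fell from 456 and 499 to 287 and 282 CPM (log2 -0.74), and Eif5b, which joins the ribosomal subunits, fell from 210 and 182 to 137 and 92.8 CPM (log2 -0.79). Of 48 ATF4, amino acid and one-carbon genes 9 fell and 4 rose (18.8% and 8.33%, background 14.7% and 15.9%), with a median of -0.07. Those that fell include Srm, spermidine synthase, from 114 and 79.2 to 27.5 and 12.7 CPM (log2 -2.31), and the one-carbon enzymes Shmt1 (log2 -1.79) and Mthfd1 (-1.55), while Mthfd2, the mitochondrial one-carbon enzyme, did not pass (log2 -0.09, adjusted p = 0.82). The riser with the smallest p was the pseudokinase gene Trib3, from 4.54 and 5.53 to 38.7 and 23.9 CPM (log2 2.65).

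**Figure D2:**
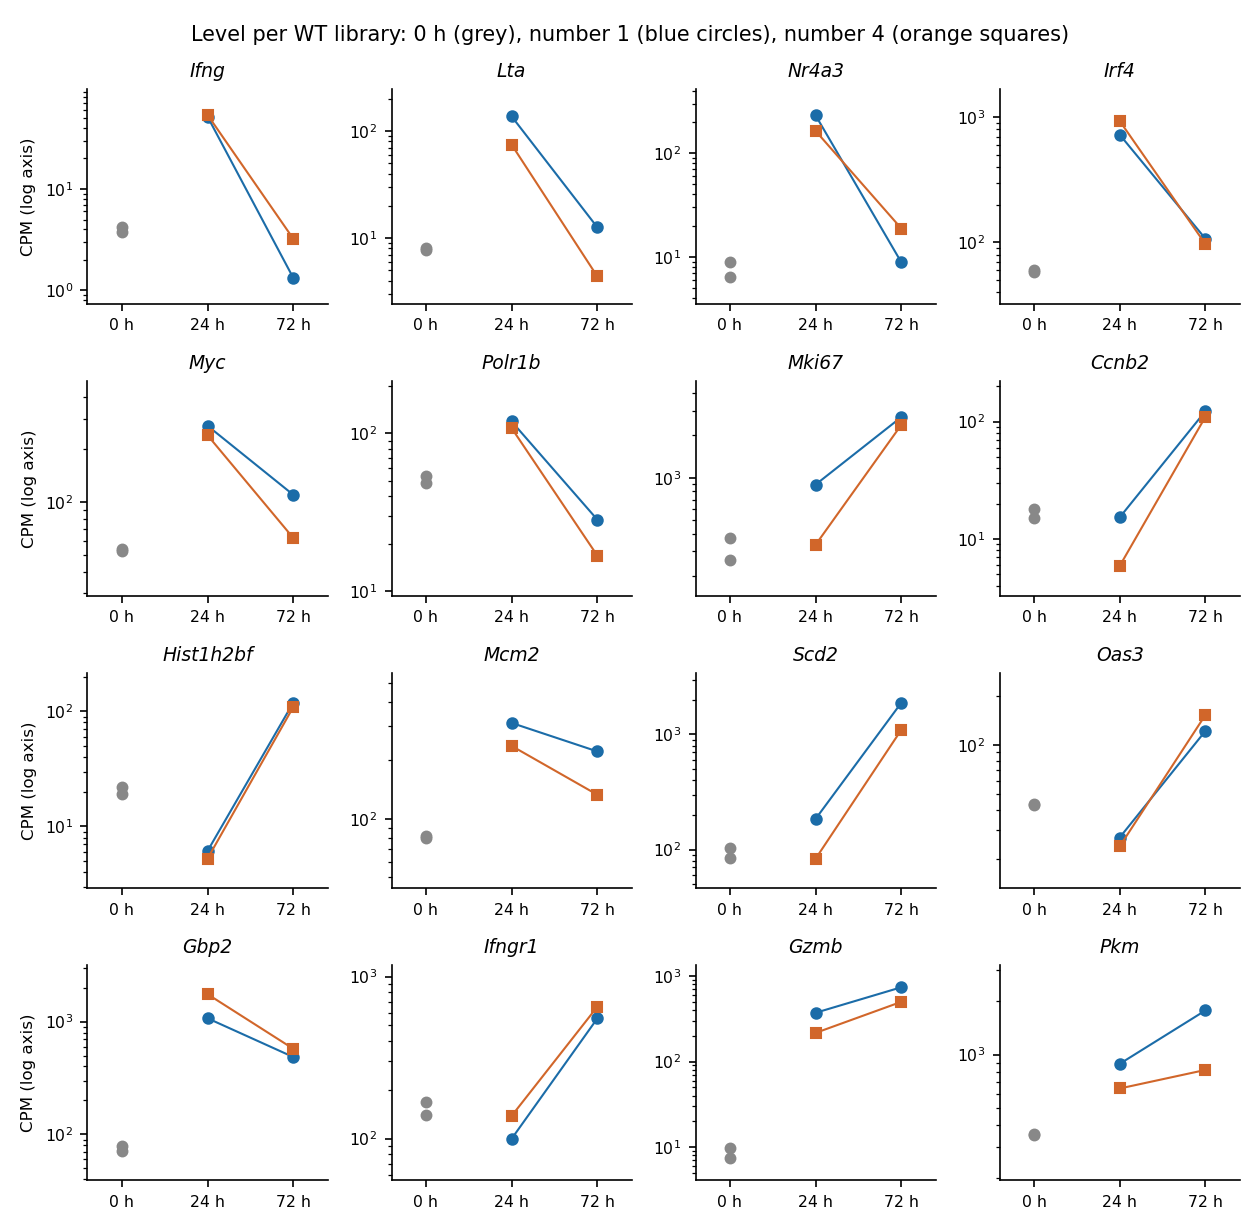
Levels (CPM, log axis) of 16 genes in each WT library at 0, 24 and 72 h; lines join libraries of the same number. Ifng, Lta, Nr4a3, Irf4, Myc, Polr1b and Gbp2 run down from 24 to 72 h in both pairs, Mki67, Ccnb2, Hist1h2bf, Scd2, Oas3 and Ifngr1 run up, and Pkm splits at 72 h into 1780 and 819 CPM.

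Cytokine and chemokine messages were lower at 72 h in most members that passed. Of 39 genes listed 32 were tested, 17 fell and 2 rose (53.1% and 6.25%, background 14.7% and 15.9%). The median log2 change was -2.22 (-2.15 with the members at 0 in both libraries of a time set to a floor of 3 counts over that time). Only 11 of the 32 had a mean log2 CPM of 3 or more, of which 5 fell and 2 rose. The median therefore rests mostly on low genes. Ifng (ENSMUSG00000055170.3, GRCm38 chr10:118441046-118445892, plus strand), interferon gamma, stood at 51.6 and 53.7 CPM at 24 h and at 1.33 and 3.23 CPM at 72 h. Its log2 fold change was -4.68 (SE 0.83, adjusted p = 1.0e-04), and both 72 h values lay below the 3.78 and 4.19 CPM of the unstimulated libraries. Lta, lymphotoxin alpha, fell from 137 and 74.6 to 12.6 and 4.38 CPM (log2 -3.70, SE 0.38, adjusted p = 7.3e-08), and Tnf from 104 and 75.6 to 26.4 and 14.8 CPM (log2 -2.15, adjusted p = 0.00017). The IL-6 family cytokine Lif fell from 134 and 79.1 to 22.6 and 2.09 CPM (log2 -3.46); the pairs gave -2.57 and -5.24. The inflammatory chemokine genes Ccl3 and Ccl4 fell from 29.5 and 36.0 to 0.818 and 3.44 CPM and from 17.8 and 19.9 to 0.904 and 1.88 CPM. Xcl1, a chemokine that attracts cross-presenting dendritic cells, fell from 20.1 and 31.6 to 2.32 and 5.01 CPM (log2 -2.89). Il2 itself was low at both times, 0.793 and 1.84 CPM at 24 h and 0.129 and 0 CPM at 72 h. The 2 members that rose were Ccl5, a chemokine of effector T cells, from 14.6 and 9.77 to 32.4 and 43.8 CPM (log2 1.62, adjusted p = 0.014), and Ltb, lymphotoxin beta (log2 0.34).

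Early activation genes, the immediate early factors that antigen receptor signals switch on, followed the cytokines down. Of 35 tested, 21 fell and 3 rose (60.0% and 8.57%, background 14.7% and 15.9%), with a median of -0.85. Nr4a3 (ENSMUSG00000028341.9, GRCm38 chr4:48045153-48086447, plus strand), an orphan nuclear receptor induced by receptor signalling, stood at 230 and 163 CPM at 24 h and at 8.82 and 18.7 CPM at 72 h (log2 -3.93, SE 0.35, adjusted p = 1.2e-08). The zinc finger factor Egr2 fell from 27.0 and 50.3 to 1.38 and 5.63 CPM (log2 -3.69), and Egr1 from 61.8 and 104 to 12.2 and 15.7 CPM (log2 -2.53). Irf4, whose level follows the strength of the receptor signal, fell from 724 and 931 to 107 and 96.9 CPM (log2 -3.01, SE 0.28, adjusted p = 2.2e-08). Its level in the unstimulated libraries was 60.6 and 58.3 CPM, still below both 72 h values. The surface marker Cd69 fell from 209 and 225 to 98.8 and 67.1 CPM (log2 -1.41, adjusted p = 0.019). Bhlhe40 (log2 0.97), Fosl2 (0.81) and Batf (0.58), all of them transcription factors of effector T cells, were the 3 that rose.

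The machinery of the T cell receptor itself was moderately higher. Of 34 signalling genes tested, 21 rose and 1 fell (61.8% and 2.94%, background 15.9% and 14.7%), with a median of 0.37. Of 13 T cell markers 7 rose (53.8%) and none fell. Cd3g went from 134 and 142 to 238 and 239 CPM (log2 0.79, SE 0.08, adjusted p = 6.8e-08), and the kinase Lck from 369 and 350 to 595 and 545 CPM (log2 0.67). Ptpn22, a phosphatase that restrains receptor signalling, went from 168 and 221 to 391 and 504 CPM (log2 1.21). The other inhibitory phosphatase named, Ptpn6, was the 1 that fell (log2 -0.48). Of the coreceptors, Cd8a stood at 410 and 388 and then 487 and 449 CPM (log2 0.23, adjusted p = 0.29), and Cd4 at 147 and 180 and then 111 and 140 CPM (log2 -0.39, adjusted p = 0.41).

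Cytotoxic granule genes rose where they passed. Of 23 tested, 13 rose and none fell (56.5% higher, background 15.9%), with a median of 0.73. Gzma, granzyme A, went from 1.15 and 6.45 to 23.0 and 31.6 CPM (log2 3.22, SE 0.60, adjusted p = 0.00017). Nkg7, a granule membrane protein, went from 48.5 and 44.1 to 146 and 120 CPM (log2 1.52, adjusted p = 0.00076), and the lysosomal protease gene Ctsd from 160 and 133 to 283 and 333 CPM (log2 1.07). Gzmb, granzyme B, stood at 371 and 216 and then at 737 and 498 CPM, without overlap, yet did not pass (log2 1.10, SE 0.64, adjusted p = 0.21). Perforin, Prf1, stood at 10.6 and 17.1 and then at 7.49 and 10.7 CPM (log2 -0.58, adjusted p = 0.53). Of 25 effector transcription factors 9 rose and 4 fell: Runx3, a factor of CD8 T cell identity, went from 96.7 and 108 to 231 and 215 CPM (log2 1.13, SE 0.10, adjusted p = 1.2e-08), Hopx (1.62), Gata3 (1.03) and Stat4 (0.93) also rose, and Tbx21, the T-bet gene, fell from 87.9 and 88.3 to 35.3 and 38.0 CPM (log2 -1.27, adjusted p = 0.00067). Tox (log2 -1.5), Foxp3, the factor of regulatory T cells (-1.63), and Ahr (-2.64) were the others that fell. The share of these 25 factors that fell was near the 14.7% of all genes tested. The 4 fallers are therefore named as single genes.

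Single surface receptors for migration and costimulation changed in both directions. Of 37 homing and adhesion receptors 12 rose and 6 fell (32.4% and 16.2%, background 15.9% and 14.7%). The share that fell was near that of all genes tested. Ccr2, a receptor for inflammatory chemokines, went from 15.6 and 10.9 to 157 and 95.6 CPM (log2 3.24, SE 0.66, adjusted p = 0.00046) and Cxcr3 from 26.8 and 15.4 to 75.0 and 72.5 CPM (1.84). Ccr8 (log2 -2.94), Ccr4 (-1.58) and the lymph node receptor Ccr7, from 299 and 313 to 198 and 214 CPM (log2 -0.57, adjusted p = 0.016), fell. Of 33 naive and quiescence genes 10 rose and 5 fell (30.3% and 15.2%), the latter share again near the background. Tcf7, the TCF1 gene of naive and memory cells, went from 397 and 456 to 630 and 899 CPM (log2 0.82, adjusted p = 0.0072), Tob1, an antiproliferative gene, rose by 1.09, and Dtx1, a Notch pathway gene, fell from 15.0 and 15.2 to 0.947 and 1.88 CPM (log2 -3.56), after 255 and 215 CPM in the unstimulated libraries. Of 18 costimulatory receptors 5 rose and 4 fell (27.8% and 22.2%). The TNF receptor Cd27 rose from 86.1 and 107 to 166 and 195 CPM (log2 0.90). Another, Tnfrsf4, OX40, fell from 42.9 and 55.9 to 13.6 and 13.5 CPM (log2 -1.84, adjusted p = 7.2e-07). Of 21 inhibitory receptor genes tested 4 rose and 4 fell (19.0% each), near the background, and 13 did not pass. Among them, Ctla4 rose from 78.6 and 64.2 to 202 and 207 CPM (log2 1.52). Lag3 (log2 -1.16) and the PD-1 ligands Cd274 (109 and 187 to 29.2 and 44.2 CPM, log2 -1.99) and Pdcd1lg2 (-2.56) fell. Cd28 stood at 387 and 411 CPM at 24 h and at 474 and 587 CPM at 72 h, which did not pass (log2 0.40, SE 0.17, adjusted p = 0.082).

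Cytokine receptor and JAK-STAT feedback genes changed in both directions: of 42 tested, 14 rose and 12 fell (33.3% and 28.6%, background 15.9% and 14.7%). Ifngr1 (ENSMUSG00000020009.12, GRCm38 chr10:19591949-19610229, plus strand), the ligand-binding chain of the interferon gamma receptor, went from 99.7 and 138 to 552 and 652 CPM (log2 2.36, SE 0.23, adjusted p = 4.2e-08), and Ifnar2 and Ifnar1 of the type I receptor rose by 1.20 and 0.92, while the second chain of the gamma receptor, Ifngr2, fell (log2 -0.60). Cish, a STAT5 target that inhibits cytokine and antigen receptor signalling, fell from 255 and 278 to 80.7 and 40.6 CPM (log2 -2.2, adjusted p = 3.7e-05), and the survival kinase Pim2 from 412 and 345 to 212 and 187 CPM (log2 -0.92). The high-affinity IL-2 receptor chain Il2ra stood at 786 and 644 and then at 648 and 403 CPM (log2 -0.48, adjusted p = 0.14), and the shared signalling chain Il2rb rose from 467 and 384 to 736 and 555 CPM (log2 0.59).

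More interferon-induced genes rose than fell. Of 63 tested, 34 rose and 9 fell (54.0% and 14.3%, background 15.9% and 14.7%), with a median of 0.87 and medians of 0.79 in both pairs. The share that fell was thus near the background, and the fallers named below are single genes. Antiviral effectors were among the risers: Oas3 (ENSMUSG00000032661.9, GRCm38 chr5:120753098-120777661, minus strand), an oligoadenylate synthetase, went from 27.1 and 23.9 to 122 and 153 CPM (log2 2.41, SE 0.25, adjusted p = 8.3e-08), Rsad2, viperin, from 0.865 and 1.57 to 18.2 and 28.9 CPM (log2 4.30), Mx1 from 2.2 and 1.2 to 13.7 and 18.1 CPM (3.13), and Isg15, a ubiquitin-like modifier, from 1.15 and 1.47 to 5.55 and 8.35 CPM (2.37). The RNA sensor gene Ddx58 (log2 1.65), Samd9l (1.54) and the transcription factor Irf7 (1.46) rose too. Among the 9 that fell are 6 GTPases of the guanylate-binding and immunity-related families, whose members were not tested as a group; of the same families Gbp3 rose (log2 0.99) and Gbp6, Gbp7, Gbp9 and Irgm2 did not pass. Gbp2 (ENSMUSG00000028270.12, GRCm38 chr3:142620602-142638008, plus strand) fell from 1070 and 1750 to 485 and 574 CPM (log2 -1.38, SE 0.22, adjusted p = 3.5e-05), and Ifi47 (-0.91), Irgm1 (-0.92), Iigp1 (-0.84), Gbp4 (-0.55) and Igtp (-0.49) fell, with Slfn5 (-1.57), Irf1 (-0.48) and Ifi35 (-0.47) besides. In the unstimulated libraries Gbp2 was at 79.6 and 70.7 CPM, below all 4 stimulated libraries, and Rsad2 at 11.1 and 15.0 CPM, between the 24 h and the 72 h levels.

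Promoters of 1 riser and 1 faller are shown, each with the core of the interferon-stimulated response element, GAAANNGAA, in capitals on either strand. The windows are the 250 bases before the RefSeq start on GRCm38.p6: Oas3 at chr5:120777660-120777909 on the minus strand, with 2 matches that overlap, the nearer 69 bases before the start, and Gbp2 at chr3:142620413-142620662 on the plus strand, with 1 match 58 bases before the start, read on the opposite strand. The Gbp2 gene position given above begins inside this window, so that its match lies before the RefSeq start only.
Oas3: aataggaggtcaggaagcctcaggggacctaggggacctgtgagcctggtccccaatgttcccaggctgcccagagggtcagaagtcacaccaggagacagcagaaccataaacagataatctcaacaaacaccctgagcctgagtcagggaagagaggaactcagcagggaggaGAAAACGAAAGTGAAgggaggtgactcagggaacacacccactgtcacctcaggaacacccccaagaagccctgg
Gbp2: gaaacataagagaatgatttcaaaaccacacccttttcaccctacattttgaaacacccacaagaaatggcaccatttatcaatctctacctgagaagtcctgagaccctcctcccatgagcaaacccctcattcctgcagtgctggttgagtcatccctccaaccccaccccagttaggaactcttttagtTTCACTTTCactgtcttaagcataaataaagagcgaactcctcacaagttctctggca
The letters stood in 27 of 57 windows of interferon-induced genes (47.4%; 47 of 63 members had a window) and in 7.13% of all windows. A first search with a form of this core that is 1 letter longer, with a further A at its end, had given 26 of 57 (45.6%) and 2.98%. A gene that rose and a gene that fell thus both hold them. The same count for the sterol regulatory element TCACNCCAC gave 1 of 27 windows of cholesterol synthesis genes (3.70%, all windows 1.05%), and for the E-box CACGTG 4 of 63 windows of ribosome biogenesis genes (6.35%, all windows 6.02%).

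More genes of lipid synthesis rose than fell. Of 31 cholesterol synthesis and transport genes 24 rose and none fell (77.4% higher, background 15.9%), with a median of 0.78. Of 24 fatty acid synthesis genes 14 rose and 2 fell (58.3% and 8.33%), with a median of 0.82. Scd2 (ENSMUSG00000025203.5, GRCm38 chr19:44293674-44306864, plus strand), a desaturase that makes monounsaturated fatty acids, went from 185 and 83.4 to 1890 and 1100 CPM (log2 3.53, SE 0.45, adjusted p = 1.5e-06), and its paralog Scd1 from 2.63 and 0.830 to 106 and 27.6 CPM (log2 5.26, SE 1.11). Hmgcs1, which begins the mevalonate pathway, went from 121 and 112 to 317 and 204 CPM (log2 1.13, adjusted p = 0.0014), and Mvd, a later enzyme of that pathway, from 12.5 and 11.0 to 34.0 and 27.6 CPM (log2 1.39, adjusted p = 3.5e-06). Abcg1, which exports cholesterol, rose from 39.7 and 38.5 to 141 and 136 CPM (log2 1.82, adjusted p = 2.0e-06), so that these genes of synthesis and of export were both higher. In all of these the 72 h libraries lay above the 24 h libraries, and for 27 of the 31 cholesterol genes the log2 value was larger in number 1, where 22 rose in that pair alone against 8 in number 4 alone.

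Glycolysis and hypoxia response genes are where the pairs diverged the other way. Of 22 glycolysis genes 8 rose and 2 fell (36.4% and 9.09%, background 15.9% and 14.7%), with a median of 0.47. Of 27 hypoxia response genes 15 rose (55.6%) and none fell, with a median of 0.67. In the pair number 1 alone 7 and 13 rose, in the pair number 4 alone 2 and 2; the medians were 0.89 and 1.09 in the pair number 1 against 0.14 and 0.26 in the pair number 4. The rise was larger in number 1 for 21 of 22 and 24 of 27 members, and 5 and 13 of them had an unadjusted p under 0.05 for the pair difference, none passing adjustment. Here the difference lay at 72 h: the median log2 ratio of number 4 to number 1 was -0.29 at 24 h and -1.08 at 72 h for glycolysis, and -0.05 and -0.91 for hypoxia. Slc16a3, the lactate exporter, stood at 5.58 and 5.81 CPM at 24 h and at 84.9 and 16.2 CPM at 72 h (log2 2.87, SE 0.65, adjusted p = 0.0013). Bnip3, a mitophagy receptor that hypoxia induces, stood at 6.41 and 4.61 and then at 91.6 and 12.6 CPM (log2 2.87, adjusted p = 0.0017). In the glucose transporter Slc2a1 the pairs had opposite signs, from 40.4 and 33.1 to 90.1 and 25.9 CPM (log2 1.16 and -0.35; 0.45 over both, adjusted p = 0.42), and so they had in the prolyl hydroxylase Egln3, from 18.2 and 14.2 to 45.0 and 5.95 CPM, and in lactate dehydrogenase, Ldha, from 845 and 673 to 1330 and 623 CPM. Genes that passed, with rises in both pairs, were the transporter Slc2a3 (36.5 and 32.4 to 117 and 63.6 CPM, log2 1.34, adjusted p = 2.4e-07), the aldolase Aldoa (log2 0.95), Gapdh (0.74), the mTORC1 inhibitor Ddit4 (9.83 and 13.5 to 60.6 and 51.3 CPM, log2 2.29) and Narf (1.57). Hexokinase 2, Hk2, stood at 94.5 and 59.5 and then at 63.0 and 13.6 CPM (log2 -1.28, adjusted p = 0.083). The numbers also differ in depth, whose part in this split and in that of the mitosis genes was not tested.

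**Figure D3:**
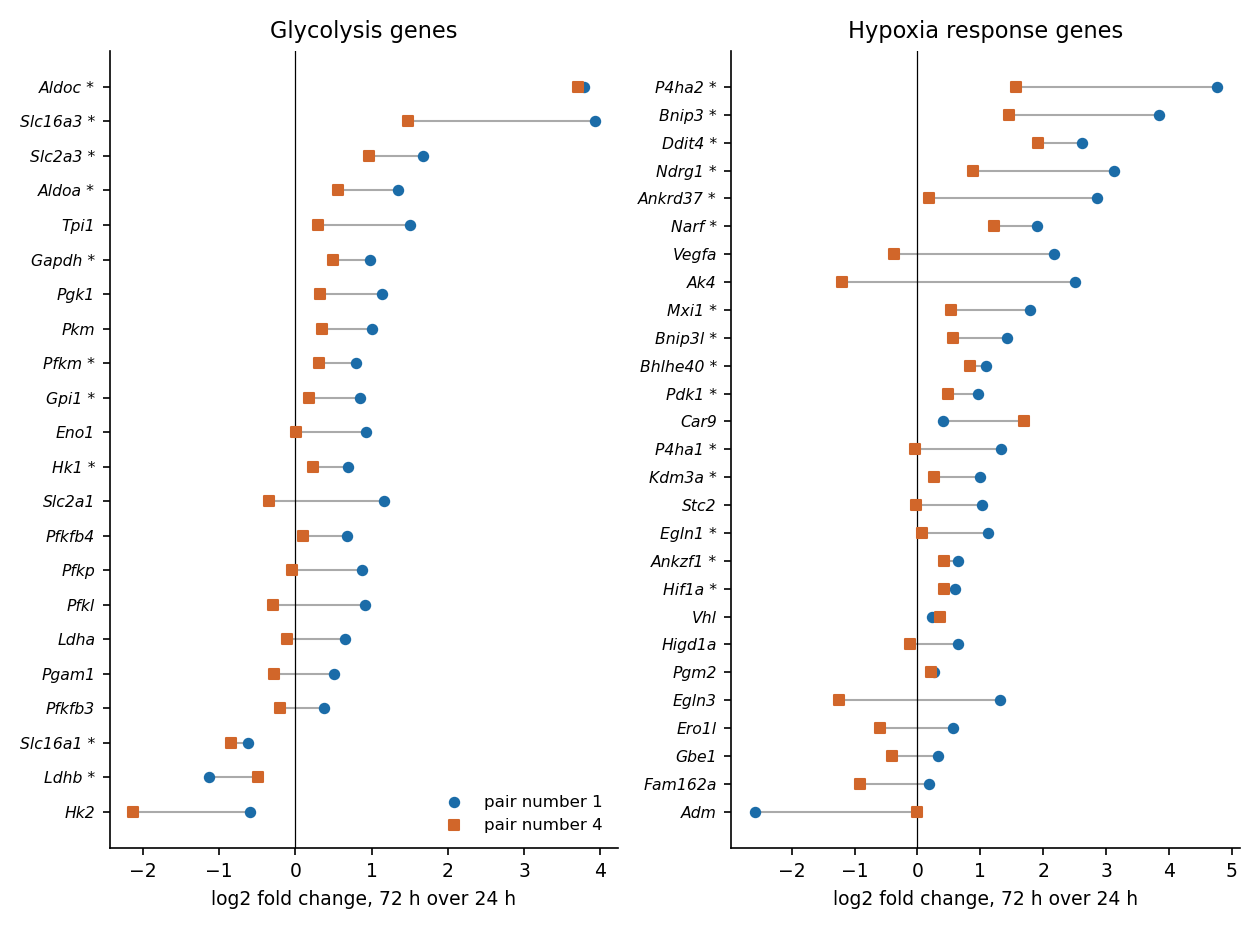
Log2 fold change, 72 h over 24 h, of each glycolysis gene (left) and hypoxia response gene (right) in the pair number 1 (circles) and the pair number 4 (squares); stars mark genes with an adjusted p under 0.05 over both pairs. Circles lie to the right of squares for 21 of 22 and 24 of 27 genes; Adm was at 0 in both number 4 libraries.

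**Figure D4:**
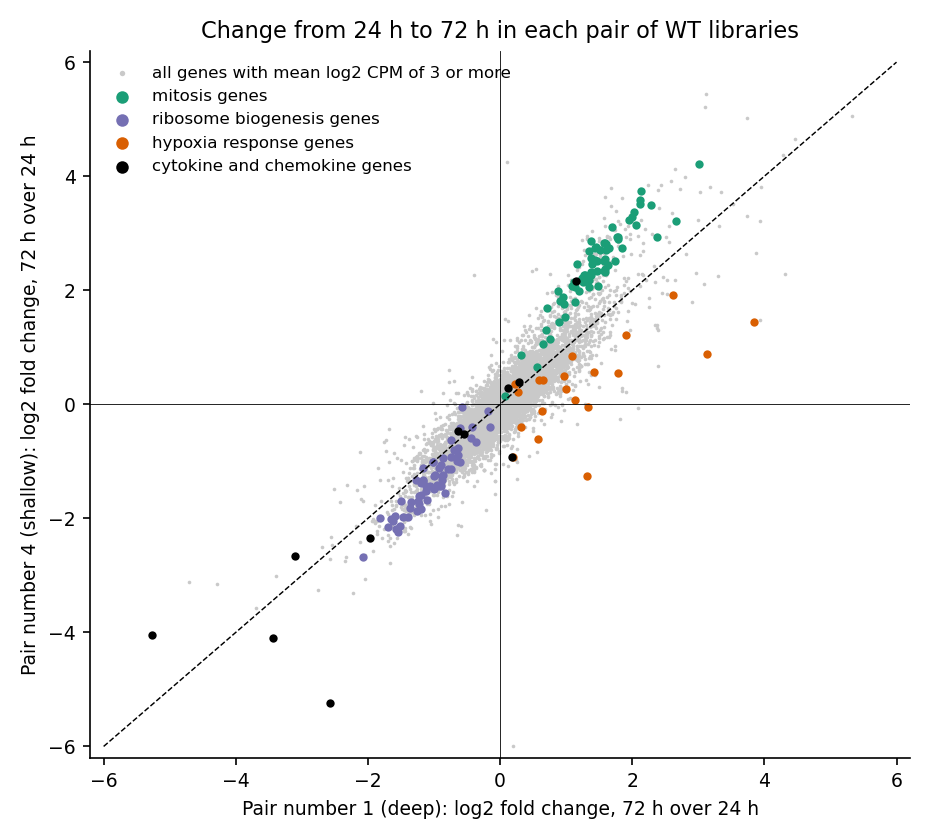
Log2 fold change in the pair number 4 (y axis) against that in the pair number 1 (x axis) for genes with a mean log2 CPM of 3 or more, values beyond 6 drawn at 6; the dashed line marks equal change. Mitosis genes lie above the line, hypoxia response genes below it, and ribosome biogenesis genes near or below it on the negative side.

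Pkm, the pyruvate kinase gene of the series title (ENSMUSG00000032294.16, GRCm38 chr9:59656368-59679375, plus strand), followed the same split. It stood at 887 and 643 CPM at 24 h and at 1780 and 819 CPM at 72 h, against 350 and 357 CPM before stimulation. Its log2 fold change was 0.68 (SE 0.28, adjusted p = 0.073; 1.00 in number 1 and 0.35 in number 4), so that the rise was in the same direction in both pairs and did not pass. These gene totals do not separate its M1 and M2 isoforms. Srrt, which encodes ARS2, stood at 244 and 131 CPM and then at 245 and 145 CPM (log2 0.08, adjusted p = 0.82); its 2 numbers differed at both times and its 2 times within a number hardly. Ncbp1 (log2 -0.36, adjusted p = 0.053) and Ncbp2 (-0.38, adjusted p = 0.054), the cap-binding subunits, did not pass. Of 28 genes of the cap-binding complex, ARS2 and their partners 3 rose and 6 fell, among them the microRNA-processing nuclease Drosha (87.8 and 78.5 to 57.4 and 47.3 CPM, log2 -0.67) and Eif4e (-0.83). Of 51 splicing regulators 5 rose and 10 fell. These shares, 9.80% and 19.6%, and those of the cap-binding list, 10.7% and 21.4%, compare with 15.9% and 14.7% of all genes tested. Celf2 rose from 280 and 238 to 584 and 652 CPM (log2 1.26) and Srsf7 fell from 188 and 148 to 105 and 71.8 CPM (log2 -0.94).

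Of 27 BCL2 family and survival genes 9 rose and 6 fell (33.3% and 22.2%, background 15.9% and 14.7%). The death-promoting genes Bbc3 (2.85 and 2.95 to 11.3 and 15.5 CPM, log2 2.17), Bcl2l11 (92.2 and 134 to 211 and 319 CPM, log2 1.22) and Apaf1 (log2 1.27) rose, as did the mitotic survivin gene Birc5 (log2 2.17). The protective Bcl2l1, BCL-XL, fell from 117 and 82.2 to 43.9 and 22.4 CPM (log2 -1.63, SE 0.24, adjusted p = 8.5e-06) and Bcl2a1b fell by 1.37. Not all members went by role: the death-promoting Bid fell from 28.8 and 24.9 to 16.3 and 11.5 CPM (log2 -0.96, adjusted p = 0.0033), and Bax stood at 35.3 and 34.1 and then at 32.2 and 37.6 CPM, which did not pass. Of 53 autophagy and lysosome genes 26 rose and 4 fell (49.1% and 7.55%). Among the risers were Atg9a (12.9 and 15.3 to 36.9 and 35.8 CPM, log2 1.38) and Laptm5 (1.27). Txnip, an arrestin that limits glucose uptake, rose from 129 and 163 to 366 and 404 CPM (log2 1.41, adjusted p = 0.0065) and stayed below the 580 and 582 CPM of the unstimulated libraries.

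The unstimulated levels quoted above come from 2 libraries that differ from the stimulated ones in more than time. Mitochondrial ribosomal RNA took 17.2% and 17.5% of their counts and at most 0.0185% in the 4 stimulated WT libraries, and their B cell markers summed to 1290 and 1200 CPM. Their levels are therefore given side by side and were not tested.

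The change from 24 h to 72 h was set against that in 3 mutant genotypes, none of which shares a library with it. The knockout labels were checked first. In Ars2_KO, Srrt stood at 33.5 to 64.8 CPM at 24 h and at 105 to 146 CPM at 72 h, below both WT libraries at 24 h, while at 72 h the highest of the 3 was level with WT number 4 (145 CPM). In the libraries labelled CD28_KO, Cd28 stood at 482 and 476 CPM at 24 h, above WT, and at 212 and 214 CPM at 72 h, so that the gene's total did not bear out the label at 24 h. The label is used as given for the groups.

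In CD28_Y170F, a point mutant of the CD28 tail, no difference from WT in the change passed the test. The count was 0 of 18292 genes (0.0%; edgeR, 434 at an unadjusted p under 0.05, 0 by limma-voom and 5 by DESeq2), and 86 did without the 72 h library number 1 of that genotype. Of the 5597 genes called in WT, 99.5% had the same sign in CD28_Y170F, against 82.8% of all genes tested. The medians of the gene groups were near those of WT: ribosome biogenesis -1.21 against -1.17 in WT, mitosis 1.76 against 1.96, cytokines -1.77 against -2.22 and interferon-induced genes 0.91 against 0.87. A difference that does not pass does not show that the genotypes act alike.

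In Ars2_KO the day effect differed from WT for 831 genes (4.54%), 416 with a larger log2 value in WT (2.27%) and 415 with a smaller one (2.27%). This count rests on single libraries: it was 352 and 69 without WT number 1 and number 4, 290 to 2343 without single Ars2_KO libraries, the highest without the 72 h library number 3, and 0 in a fit to only the libraries compared. Of 60 ribosome biogenesis genes 33 were among those with a smaller value in WT, and the list's median was -0.21 in Ars2_KO against -1.17. Lta, which fell by 3.70 in WT, stood at 49.5, 75.6 and 102 CPM at 24 h and at 80.5, 104 and 31.1 CPM at 72 h in Ars2_KO (difference of the log2 values -3.62, SE 0.45, adjusted p = 0.00021). Ifng stood at 17.9, 54.4 and 16.3 and then at 18.1, 24.2 and 1.11 CPM there, and Cmpk2 at 7.26, 6.48 and 3.93 and then at 11.2, 10.6 and 27.6 CPM. In these 3 genes the 72 h library number 3 was the one nearest to the WT levels at 72 h. Of the 62 histone genes 21 and of the 66 mitosis genes 11 had a larger rise in WT, and 10 of 63 interferon-induced genes did, whose median was -0.01 in Ars2_KO.

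In the libraries labelled CD28_KO the change differed from WT for 6611 genes (36.1%), 2768 larger in WT (15.1%) and 3843 smaller (21.0%). Of the genes called in WT 57.8% had the same sign there, against 54.8% of all genes tested. Groups that fell in WT had positive medians: ribosome biogenesis 0.87 (59 of 60 differed), cytokines 1.62 (19 of 32 with a smaller value in WT) and early activation genes 0.35 (21 of 35). Ifng stood at 0.518 and 0.783 CPM at 24 h and at 22.2 and 14.7 CPM at 72 h in these libraries, while it went from 51.6 and 53.7 to 1.33 and 3.23 CPM in WT (difference -9.48, SE 1.24, adjusted p = 4.0e-06). Mitosis genes rose more there, with a median of 3.80 against 1.96 (53 of 66 with a smaller rise in WT), and DNA replication genes, with a median of 0.05 in WT, had one of 2.09 (53 of 56). Cholesterol synthesis genes had a median of 0.74 against 0.78 in WT.

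**Figure D5:**
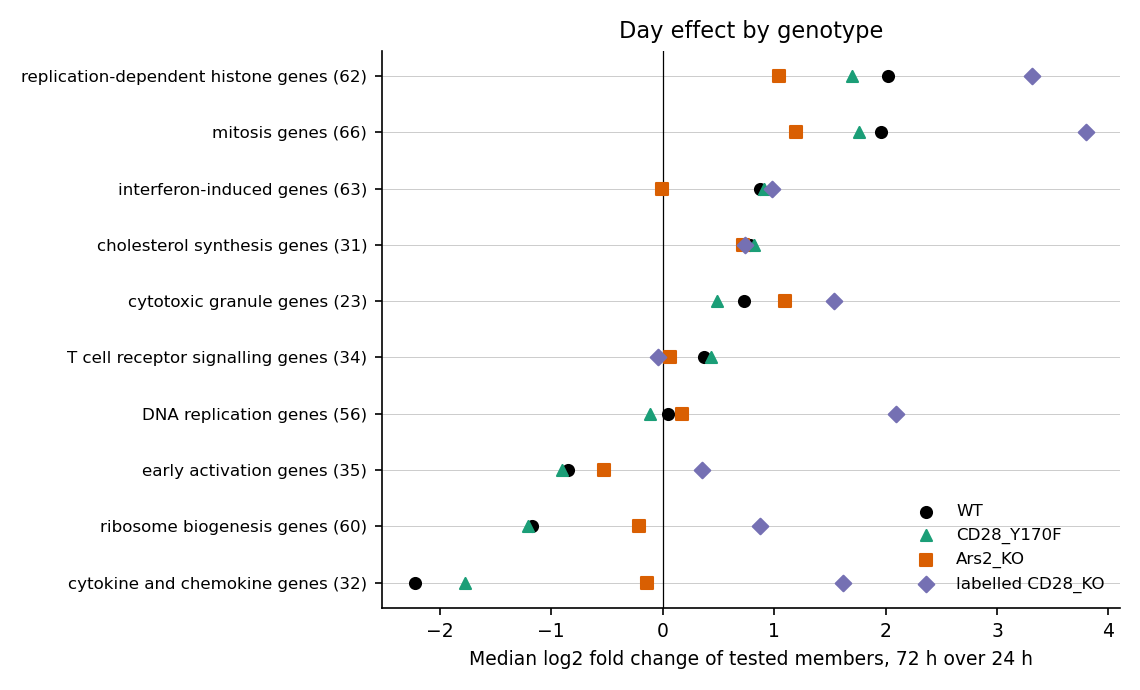
Median log2 fold change, 72 h over 24 h, of 10 gene groups (number of tested members in brackets) in WT, CD28_Y170F, Ars2_KO and the libraries labelled CD28_KO. For ribosome biogenesis the medians run from -1.21 (CD28_Y170F) to 0.87 (CD28_KO) and for cytokines from -2.22 (WT) to 1.62.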

How the data were processed

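The deposited table gives, for 34 libraries, the authors' expected counts per gene, made from paired reads of a stranded dUTP library; bcl2fastq 2.20, FastQC, STAR, RSEM and limma and the build mm10/GRCm38 are named in the submitters' processing notes, while the annotation release and how strand was handled in counting are not given in the sources used here. In each library 83.7% to 90.8% of the values, zeros included, were whole numbers, and all were rounded. Gene names and positions came from a GRCm38 annotation, which matched 48144 of 48526 identifiers. Genes with enough counts were kept (18292, at least 99.9% of each library's counts), scaled by trimmed mean of M values, and fitted with edgeR 4.0.16 (R 4.3.3) by the quasi-likelihood F test: 1 mean for each of 13 groups over all 34 libraries, so that all groups share the estimate of spread, plus 1 term for the library number of the stimulated WT libraries (20 residual degrees of freedom). P-values were adjusted by Benjamini-Hochberg over all genes tested, and the threshold was 0.05. The main fit has the block because the comparison pairs the libraries by number; no label says that a number marks 1 mouse, and the 2 pairs also differ in depth (10056196 to 26393372 counts). Deviations of same-numbered libraries from their group means correlated across genes at 0.29 over all genes and at 0.54 over the 9308 with a mean log2 CPM of 3 or more. With 2 libraries at each time, the spread comes mostly from the other groups. Alternatives were a fit without the block, no filter, another scaling, limma 3.58.1, DESeq2 1.42.0, fits to fewer groups and leaving out libraries. Scripts were tested on simulated counts.

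The members and the 40 gene lists (1414 entries) were chosen with earlier results of these data known. Genes were named by rule: the 12 largest changes in each direction among called genes with a mean log2 CPM of at least 3, the same sign in both pairs, no overlap between the times and no numbered, mitochondrial, ribosomal protein, small RNA, receptor segment, sex-linked marker or pseudogene name; up to 4 members of each list in each direction by smallest p, or the 2 most abundant where fewer than 2 passed; the genes of the series title; and up to 3 genes in each direction for each genotype difference. Other genes were chosen after their values were seen: Adm, Aldoa, Bax, Bnip3, Ccr2, Cd4, Cd69, Cd8a, Cdk1, Egln3, Emg1, Gapdh, Gbp3, Gbp4, Gbp6, Gbp7, Gbp9, Gzmb, Hk2, Hmgcs1, Ifngr2, Igtp, Iigp1, Il2, Il2ra, Il2rb, Irf1, Irf7, Irgm2, Isg15, Ldha, Mcm2, Mki67, Mthfd2, Mx1, Mxd1, Mybl2, Ncapd2, Ncl, Nkg7, Npm1, Pcna, Polr1b, Polr1c, Prf1, Pttg1, Rsad2, Slc2a1, Slfn5, Tcf7, Tnf, Top2a, Txnip and Wdr12. The 4 promoter motifs and the lists they were counted in were also chosen after list results were seen, and the interferon element was shortened by 1 letter after a first search, whose count is given too. Results that need items withheld for evaluation are not reported here. Motifs were counted in RefSeq promoter windows of GRCm38.p6.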

Additional observations from a re-analysis of the deposited data

Results flagged for a closer look

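The change of WT T cells from 24 h to 72 h differed from that in Ars2_KO for 831 genes and from that in the libraries labelled CD28_KO for 6611 genes, by edgeR's test of the difference itself with Benjamini-Hochberg adjustment. The values below are the WT log2 fold change minus that of the mutant.

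Against Ars2_KO, 3 cytokine genes fell more in WT. The differences were -3.95 for Lif (SE 0.81, adjusted p = 0.0078), -3.66 for Ifng (SE 0.97, adjusted p = 0.031) and -3.62 for Lta (SE 0.45, adjusted p = 0.00021). Lif stood at 31.1, 48.1 and 123 CPM at 24 h and at 99.9, 153 and 30.5 CPM at 72 h in Ars2_KO. Rap1gap2 (2.18), Cmpk2 (2.05) and Depdc1b (2.03), a gene of dividing cells, rose more in WT. The 72 h library number 3 of Ars2_KO stood nearer to WT than numbers 1 and 2 in all 6 genes. None of the 6 passed in a fit to only the libraries compared, where no gene did, although the differences were of about the same size (-3.65 for Ifng and -3.63 for Lta). Without WT number 1, Ifng (-2.99), Cmpk2 (2.06) and Rap1gap2 (1.82) did not pass, and without number 4 neither did these (-4.24, 2.06 and 2.51) nor Lif (-3.06) and Depdc1b (1.39). Of the 6, Lta alone passed without either number. Ifng did not pass with limma-voom (-3.07). Leaving out single Ars2_KO libraries also ended the calls of Ifng, Cmpk2 and Rap1gap2 in at least 1 case each.

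Against the libraries labelled CD28_KO, the cytokine genes moved in opposite directions. The differences were -9.48 for Ifng, -9.05 for Lif and -6.48 for the chemokine gene Xcl1, which stood at 2.07 and 1.96 CPM at 24 h and at 19.5 and 29.0 CPM at 72 h there. Scd1 (6.81), the surface protein gene Cd101 (3.52) and Ccng2 (3.30), an atypical cyclin linked to cell cycle exit, rose in WT and were lower at 72 h in both of those libraries than at 24 h. Scd1 stood at 8.51 and 6.02 and then at 4.31 and 0.532 CPM, and Ccng2 at 86.6 and 87.9 and then at 35.9 and 47.1 CPM. In WT, Ccng2 went from 24.6 and 39.4 to 141 and 151 CPM and Cd101 from 6.56 and 3.78 to 13.7 and 15.0 CPM.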

How the results depend on the processing

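Without the replicate block the WT comparison called 5393 genes against 5597 with it, and other scalings, filters and tools called 4937 to 5803; no gene called under both had the opposite sign. Leaving out a number or a library gave 2868 to 4196 genes, 1759 to 2427 higher and 1109 to 1900 lower. For the difference from CD28_Y170F, DESeq2 called 5 genes and leaving out single libraries gave 0 to 86. For that from Ars2_KO, DESeq2 called 1582, the fit to only the libraries compared 0, and leaving out single libraries gave 69 to 2343. For the difference between the pairs, 7 genes were called with no filter. Some values changed sign when a library or a number was left out, none of them past the test over both pairs: Egln3 ran from -1.44 to 1.47, Slc2a1 from -0.50 to 1.29, Ldha from -0.27 to 0.81, Pcna from -0.37 to 0.36, Srrt from -0.37 to 0.63, Polr1c from -0.29 to 0.04, Adm from -5.08 to 2.62, Gbp6 from -0.03 to 0.44, Gbp9 from -0.50 to 0.21, Irgm2 from -0.42 to 0.19, Mthfd2 from -0.35 to 0.22 and Bax from -0.13 to 0.18 (log2; Bax also 0.02 with no filter). So did 5 list medians, between 0.17 and -0.21 for inhibitory receptors, -0.02 and 0.04 for costimulatory receptors, -0.01 and 0.01 for ribosomal proteins, -0.05 and 0.20 for DNA replication and 0.23 and -0.14 for the unfolded protein response. The cause was not tested. The shallower number 4 libraries limit low genes most.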

Other observations

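Of 34 p53 target genes 13 rose and 4 fell (38.2% and 11.8%, background 15.9% and 14.7%); Sesn1, a stress-induced brake on mTORC1, rose (log2 1.25) and Aen, an apoptosis-enhancing nuclease, fell from 71.0 and 71.0 to 24.5 and 25.6 CPM (log2 -1.5, adjusted p = 2.4e-07). The unfolded protein response list stayed near the median of all genes, with 7 of 32 higher, 1 lower (21.9% and 3.12%) and a median of 0.06. Within it the sensor kinase Eif2ak3 rose from 24.4 and 25.0 to 89.6 and 106 CPM (log2 1.98, SE 0.14, adjusted p = 6.0e-10), while the chaperone Hspa5 fell from 519 and 518 to 371 and 227 CPM (log2 -0.84, adjusted p = 0.035). Of 35 NRF2 and antioxidant genes 11 rose and 5 fell (31.4% and 14.3%), the risers including catalase, Cat (log2 0.89), and the lipid peroxidase Gpx4 (0.80). Idh1, the cytosolic isocitrate dehydrogenase, rose from 3.46 and 2.86 to 24.2 and 17.8 CPM (log2 2.74, adjusted p = 4.9e-08).

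Of 76 respiratory chain genes 14 rose and 3 fell (18.4% and 3.95%), with a median of 0.16, and of 32 tricarboxylic acid cycle genes 4 rose and 5 fell (12.5% and 15.6%). The shares that rose are near the 15.9% of all genes tested. Of 13 mitochondrially encoded messages 1 rose, mt-Co1, from 6920 and 6510 to 9170 and 8950 CPM (log2 0.43, adjusted p = 0.00067).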
